A study of Mus musculus with 24 samples.

Results

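Serpins are a superfamily of proteins that share a fold in which an exposed reactive loop acts as bait for a protease. The protease cuts the loop, and the serpin then traps it in an inactive covalent complex, so each inhibitor is used once. Hepatocytes secrete most of the serpins of blood plasma, among them the inhibitors of neutrophil elastase, thrombin, plasmin and the first complement component. Other serpins stay inside cells and protect them from their own granule proteases, and a few inhibit nothing and work as hormone carriers or as a chaperone of collagen.

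The serpin genes were taken from the RNA-Seq of mouse liver by symbol: every gene whose symbol starts with Serpin, without pseudogene symbols ending in -ps, and counted at least once in 12 or more of the 24 libraries. This rule kept 38 of 63 genes, of 17913 genes in the table that passed the same count filter. Serpins are divided into clades named by a letter, and the 38 genes fell into clade A with 22 genes, clade B with 7, clades E and F with 2 each, and clades C, D, G, H and I with 1 each. Whole livers of male and female C57BL/6J mice were compared after 20 weeks on a high-fat diet, labelled FFD, or on a control diet. The study's methods give the FFD as rich in palm oil, fructose and cholesterol, and describe the mice as young adults at its start. Each diet had 12 libraries of poly(A) RNA, numbered as replicates 1 to 12 within the diet, and each is taken as 1 mouse. All mice were of 1 inbred strain with no further allele or treatment. The deposited values were whole-number counts per gene, with 16490817 to 21213070 counts per library on the FFD and 14468418 to 22112552 on the control diet.

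Levels are given as CPM, the counts of a gene divided by the library's total after scaling with edgeR's TMM factors and brought to a common size of 1e6. The factors ranged from 0.994 to 1.34 on the FFD and from 0.679 to 1.01 on the control diet. A gene was called when edgeR's quasi-likelihood test gave a Benjamini-Hochberg adjusted p of at most 0.01 over all 17913 genes and the absolute log2 fold change exceeded 0.5. Fold changes are FFD over control, with their standard error (SE). The libraries fell into 2 sets of 12, with 6 of each diet, by the level of Xist, the RNA that coats the inactive X chromosome: 2664 to 6285 counts in replicates 1 to 6 and 0 to 3 counts in replicates 7 to 12. Ddx3y, a gene of the Y chromosome, had 0 counts in every library of the first set and 448 to 1016 counts in the second. No label gives the sex of a library, so the sets are named by Xist counts. FFD replicate 3 stood apart, with a sum of 230.6 CPM over 6 neutrophil markers against a median of 2.77 CPM on the FFD. Control replicate 10 had the fewest counts and the lowest scaling factor.

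The 5 Serpina1 genes, copies of the gene for alpha-1 antitrypsin, differ most where they meet the protease, so the bases that encode the reactive loop are shown for each. The stretch of 72 bases starts at the codons of the loop's hinge and lies in the last exon of each transcript of the GENCODE M21 annotation (GRCm38), on the minus strand. Capitals mark the 15 positions at which the genes differ.
Serpina1a, chr12:103853765-103853836: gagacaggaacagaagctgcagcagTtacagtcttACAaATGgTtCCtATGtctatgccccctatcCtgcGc
Serpina1b, chr12:103728332-103728403: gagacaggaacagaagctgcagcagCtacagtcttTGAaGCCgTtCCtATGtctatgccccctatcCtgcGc
Serpina1c, chr12:103895102-103895173: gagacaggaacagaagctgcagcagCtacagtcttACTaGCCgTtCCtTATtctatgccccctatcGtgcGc
Serpina1d, chr12:103763770-103763841: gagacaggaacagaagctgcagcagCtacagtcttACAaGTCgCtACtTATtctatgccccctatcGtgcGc
Serpina1e, chr12:103947108-103947179: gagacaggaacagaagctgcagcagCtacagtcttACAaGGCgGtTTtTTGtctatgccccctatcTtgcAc

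The loop was the more divergent part of these genes. In the loop 20.8% of the bases differed between at least a pair of the 5 copies, against 11.9% of the aligned columns of the whole coding sequence. The second share also counts gaps as differences, which raises it. The annotated coding sequence of Serpina1a has 1308 bases, and those of Serpina1b to Serpina1e have 1239. Serpina1c and Serpina1d were the closest pair in the loop, with 4 differences, and Serpina1a and Serpina1e the most distant, with 10. Over the whole coding sequence the 10 pairs were 96.29 to 98.47% identical. This likeness bears on the counts, since a read from a shared stretch can be assigned to the wrong copy or discarded. Windows of 51 bases that also occur in a transcript of another gene made up 73.8% of Serpina1c, 67.0% of Serpina1a, 50.4% of Serpina1d, 46.4% of Serpina1b and 34.6% of Serpina1e. In Serpina3k the share was 13.7%, and it was 0% in Serpinh1, Serpinc1, Serpind1, Serpinf1 and Serpinf2. In GENCODE M21 the span of Serpina1b also covers that of Serpina1d. The division of counts among the Serpina1 genes is therefore uncertain, and their sum is given as well.

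The promoters of the 5 copies are shown because these genes all fell on the FFD, by different amounts. Each window holds 72 bases of the minus strand upstream of the gene start of RefSeq (GRCm38.p6). The windows were cut at the same place around the motif, which starts 21, 26, 27, 16 and 78 bases upstream of the start in Serpina1a to Serpina1e. Capitals mark the letters GTTAAT, part of the site of the hepatocyte transcription factor HNF1, which was the motif searched, on both strands.
Serpina1a, chr12:103863629-103863700: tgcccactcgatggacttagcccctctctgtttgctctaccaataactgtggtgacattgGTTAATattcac
Serpina1b, chr12:103738204-103738275: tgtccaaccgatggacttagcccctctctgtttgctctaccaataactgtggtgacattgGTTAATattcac
Serpina1c, chr12:103904966-103905037: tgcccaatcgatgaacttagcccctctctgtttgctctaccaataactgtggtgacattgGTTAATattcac
Serpina1d, chr12:103773638-103773709: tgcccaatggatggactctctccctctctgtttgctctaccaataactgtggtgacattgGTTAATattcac
Serpina1e, chr12:103956964-103957035: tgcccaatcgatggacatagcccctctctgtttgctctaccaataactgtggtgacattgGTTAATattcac

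Any 2 of these windows differed at 2 to 7 of the 72 bases, and Serpina1e differed from Serpina1c at 2. The letters GTTAAT occurred in 7.10% of the 32851 RefSeq promoter windows of the table, and in 8 of the 29 serpin genes with a window there: the 5 Serpina1 genes, Serpina3c, Serpina7 and Serpinb8. A match is a description of the letters and not a bound site.

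Of the 38 serpin genes, 8 were called higher and 12 lower on the FFD, and 18 were not called. With the Xist set as a covariate 9 were called higher and 12 lower, without Serpina1e and with Serpinb1a and Serpina3m. Among all 17913 genes, 13.2% were called higher and 4.99% lower. The same shares of the serpins were 21.05% and 31.58%. The 5 near-identical Serpina1 genes, all called lower, count as 5 genes in these shares. The median log2 fold change of the 38 genes was -0.17, against -0.03 for all genes tested. The genes called lower were Serpina1a, Serpina1b, Serpina1c, Serpina1d, Serpina1e, Serpina3k, Serpina9, Serpina11, Serpinc1, Serpind1, Serpinf1 and Serpinf2. Among those called higher were Serpinh1, Serpini1, Serpinb6a, Serpinb6b, Serpinb9, Serpina3g and Serpina3h.

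The clades differed in direction. In clade A, 8 of 22 genes fell and 2 rose, with a median log2 fold change of -0.39. In clade B, which holds the intracellular serpins, 3 of 7 genes rose and 1, Serpinb7, not called, had a value below 0, with a median of 0.96. Clades C, D and F held 4 genes, all of them called lower, and clades H and I held 1 gene each, both called higher. Serping1, the single gene of clade G, was not called.

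**Figure D1:**
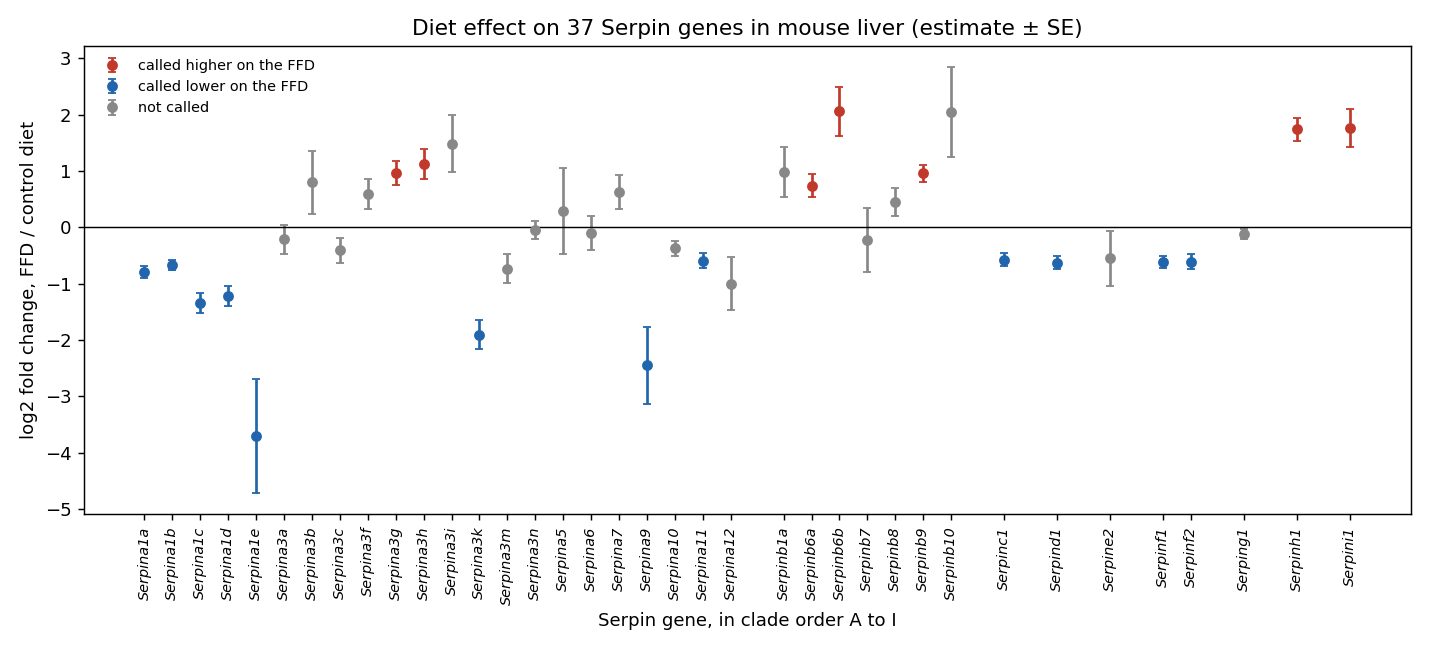
The log2 fold change (FFD over control diet, 12 libraries each) of 37 serpin genes is plotted by clade, with bars of 1 SE from edgeR's quasi-likelihood fit. Genes called higher are drawn in clades A, B, H and I, and the lowest value is that of Serpina1e at -3.70.

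Serpins were split at 100 CPM by their mean on the control diet, which is also the denominator of the fold change. Level and direction are therefore not independent here, and the same split was not made over all genes. All 16 serpin genes with a mean of 100 CPM or more on the control diet had a log2 fold change below 0, of which 10 were called lower and 0 higher, with a median of -0.65. Of the 22 genes under 100 CPM, 8 were called higher and 2 lower, with a median of 0.77. The mean of Serpina12 was 128 CPM on the control diet and 63.9 CPM on the FFD. That of Serpina7 was 66.9 CPM and 103 CPM, with a log2 fold change of 0.62. A split on the FFD level would move both genes across the cut. When libraries were scaled by their totals alone, the median of all genes moved from -0.03 to 0.26, and 9 serpins were called higher and 3 lower (Serpina3k, Serpina1c and Serpina1d), beside 21.4% and 1.26% of all genes. In that scaling Serping1, Serpina3n, Serpina6 and Serpina3a, none of them called, had values above 0, and the 12 called genes kept values below 0.

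**Figure D2:**
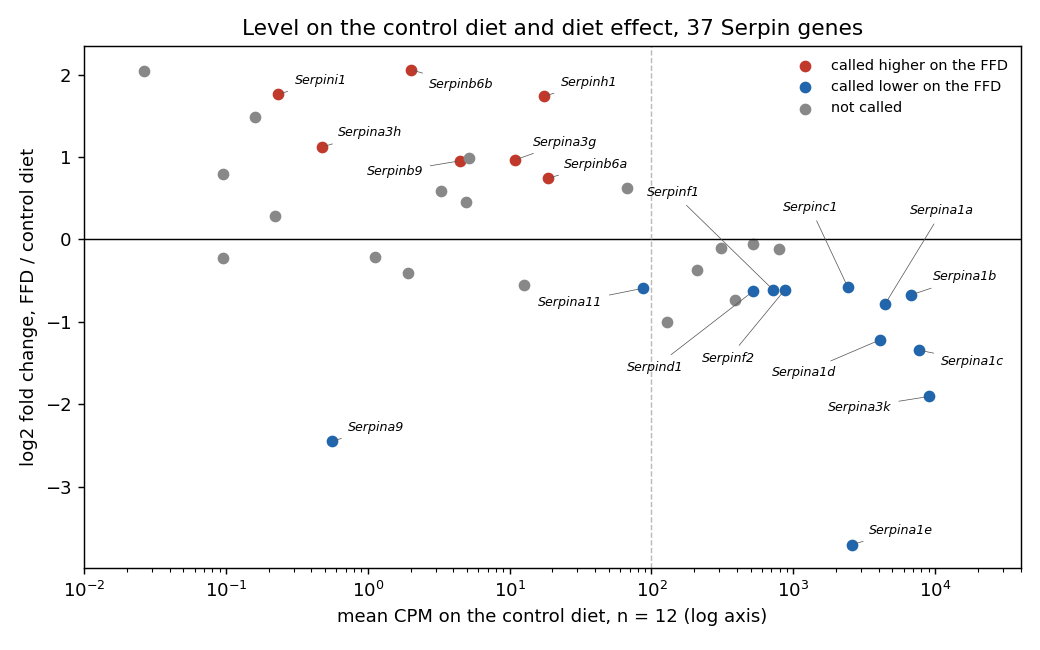
Each point is 1 of 37 serpin genes, with its mean CPM on the control diet on a log axis and its log2 fold change on the FFD. The 16 genes right of the dashed line at 100 CPM lie between -3.70 and -0.05, and the 7 genes drawn as called higher lie left of it.

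The serpins took a smaller part of the liver's transcripts on the FFD. The 38 genes together held 1.85 to 2.57% of a library's counts on the FFD (median 2.17%), and 2.62 to 5.04% on the control diet (median 3.42%), so the diets did not overlap. Serpina1a to Serpina1e and Serpina3k made up most of this, with 1.33 to 2.03% on the FFD and 1.92 to 4.44% on the control diet, where FFD replicate 9 lay above control replicate 6. The other 32 genes held 0.508 to 0.669% and 0.501 to 0.724%. Per kilobase of exon, the highest mean levels on the control diet were, in order, those of Serpina1c, Serpina3k, Serpina1d, Serpina1b and Serpina1a. Serpina1e came next over all control libraries, but its mean was 67.5 CPM in the 6 of them with Xist above 1000 counts and 5154 CPM in the other 6.

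All 5 alpha-1 antitrypsin genes were called lower over the 24 libraries. Serpina1a had 1963, 2606 and 3204 CPM as its lowest, median and highest level on the FFD, and 3299, 4338 and 5868 CPM on the control diet. Over all 24 libraries it was the single serpin whose diets did not overlap. Such a separation was seen toward lower values in 0.402% of all genes and toward higher values in 1.48%. The log2 fold change of Serpina1a was -0.79 (SE 0.11), with an adjusted p of 5.2e-06 by edgeR's quasi-likelihood test. Serpina1b ranged from 3503 to 5397 CPM on the FFD (median 4091) and from 5321 to 8370 CPM on the control diet (median 6688), with a log2 fold change of -0.67 (SE 0.09). For both genes every FFD library lay below the control median.

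Serpina1c and Serpina1d fell further. Serpina1c ranged from 2459 to 3973 CPM on the FFD (median 3095) and from 3663 to 14430 CPM on the control diet (median 6727), a log2 fold change of -1.34 (SE 0.17, adjusted p 2.55e-06 by edgeR's quasi-likelihood test). In 11 of 12 FFD libraries it was below every control library. Serpina1d had 1047 to 2817 CPM on the FFD (median 1521) against 2618 to 5119 CPM (median 4143), a log2 fold change of -1.22 (SE 0.17), and again 11 of 12 FFD libraries lay below all controls. With the 5 copies summed into 1 row, the log2 fold change was -1.12 (SE 0.15), with an adjusted p of 3.05e-06 by edgeR's quasi-likelihood test, and -1.17 to -1.03 when any 1 library was left out.

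Serpina1e had the lowest log2 fold change of the 38 genes, -3.70 (SE 1.01, adjusted p 0.00491 by edgeR's quasi-likelihood test). With the Xist set as a covariate it was -1.97, and Serpina9, at -2.54, was then lower. Serpina1e ranged from 15.4 to 915 CPM on the FFD (median 78.8) and from 29.6 to 8541 CPM on the control diet (median 964). Its control libraries split by Xist set, with 29.6 to 176 CPM in the 6 libraries with Xist above 1000 counts and 1753 to 8541 CPM in the other 6. The share of Serpina1 counts on Serpina1e followed, from 0.187 to 0.799% in the first of these and from 6.83 to 24.1% in the second. Its call was lost with library totals, with limma-voom, with the replicate number as a block (log2 fold change -2.56, adjusted p 0.0112 in edgeR), with that covariate (adjusted p 0.0465) and in the libraries with Xist above 1000 counts alone.

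Serpina3k had the second largest fall among the abundant serpins. It is 1 of the mouse genes related to human alpha-1 antichymotrypsin, and its product binds kallikrein. Its levels ran from 1602 to 3778 CPM on the FFD (median 2241) and from 3290 to 23520 CPM on the control diet (median 8496). Of 12 FFD libraries 10 lay below every control library, and the log2 fold change was -1.91 (SE 0.26, adjusted p 4.35e-06 by edgeR's quasi-likelihood test). Without control replicate 10, the highest of them, it was -1.68.

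The neighbours of Serpina3k in its cluster differed among themselves. Serpina3n, an inhibitor of granzyme B and cathepsin G that rises in the acute-phase response, ranged from 303 to 1099 CPM on the FFD and from 325 to 817 CPM on the control diet, with a log2 fold change of -0.05 (SE 0.16). Its 1099 CPM was that of FFD replicate 3, and the next FFD library had 506 CPM. Of 12 FFD libraries 11 lay below the control median. Without FFD replicate 3 the log2 fold change was -0.22, also not called. The ratio of Serpina3k to Serpina3n counts was 3.19 to 12.5 on the FFD (median 4.64) and 6.24 to 72.4 on the control diet (median 16.5). Serpina3m, with 46.8 to 371 CPM against 209 to 602 CPM, missed the threshold at a log2 change of -0.73 (adjusted p 0.0251 by edgeR's quasi-likelihood test). All its FFD libraries lay below the control median. Within each Xist set the diets did not overlap (297 to 371 against 386 to 602 CPM, and 46.8 to 171 against 209 to 485 CPM). Such a separation in both sets was also seen in other serpins, among them Serpina1a, Serpina1b, Serpina1d, Serpinc1, Serpind1, Serpinf1 and Serpinh1. Its share over all genes was not computed. Serpina3m was called lower with the Xist set as a covariate (-0.83, adjusted p 0.000291 in edgeR), with the replicate number as a block (adjusted p 0.0026) and with Xist below 1000 counts alone (-1.12). The spans of Serpina3m and Serpina3k overlap in GENCODE M21, so reads in the overlap are uncertain between them. Of the 10 Serpina3 genes, Serpina3k fell, Serpina3g and Serpina3h rose, and 7 were not called. Their summed counts, led by Serpina3k, had a log2 fold change of -1.65 (SE 0.22).

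**Figure D3:**
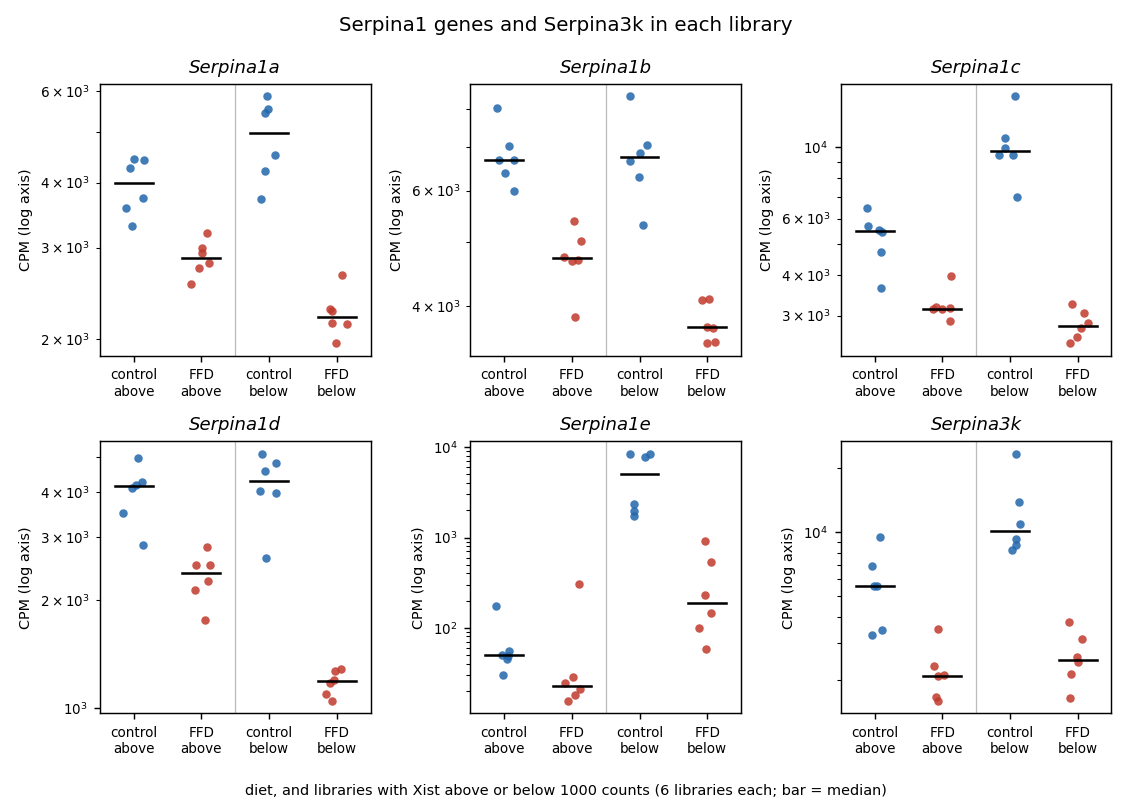
CPM on a log axis is plotted for each library of Serpina1a to Serpina1e and Serpina3k, split by diet and by Xist set (6 libraries each, bar at the median). In Serpina1e the 6 control libraries with Xist below 1000 counts sit between 1753 and 8541 CPM, and the 6 control libraries of the other set at 176 CPM or less.

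Anticoagulant and antifibrinolytic serpins fell by similar amounts over the 24 libraries. Serpinc1, antithrombin, the main inhibitor of thrombin and factor Xa, had 1147 to 2109 CPM on the FFD (median 1556) and 1694 to 3031 CPM on the control diet (median 2462), a log2 fold change of -0.57 (SE 0.12). Serpind1, heparin cofactor II, also an inhibitor of thrombin, had 246 to 462 CPM (median 335) and 368 to 665 CPM (median 516), a log2 fold change of -0.63 (SE 0.12). In each gene every FFD library was below the control median, and 6 of 12 were below all controls. Serpina10, which inhibits factor Xa together with protein Z, had 123 to 197 CPM against 151 to 423 CPM and was not called, with a log2 fold change of -0.38 (SE 0.14) that was -0.24 without control replicate 10.

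Serpinf2, alpha-2 antiplasmin, the direct inhibitor of plasmin, ranged from 399 to 881 CPM on the FFD (median 534) and from 547 to 1297 CPM on the control diet (median 881), with a log2 fold change of -0.61 (SE 0.14). Serpinf1, pigment epithelium-derived factor, an antiangiogenic protein that inhibits no protease, ranged from 341 to 611 CPM (median 432) and from 555 to 1103 CPM (median 691), also with a log2 fold change of -0.61 (SE 0.11). Adjusted p-values of these 4 genes in clades C, D and F lay between 9.5e-05 and 0.0012 by edgeR's quasi-likelihood test. None of the 4 was called with library totals alone, where their log2 fold changes were -0.35 to -0.30. Nor were they called with Xist above 1000 counts alone, at -0.44 to -0.28. Serping1, the inhibitor of the complement proteases C1r and C1s, was among the most abundant serpins that were not called, with 635 to 1129 CPM on the FFD and 629 to 963 CPM on the control diet. Its 1129 CPM was that of FFD replicate 3. The log2 fold change was -0.11, and -0.19 without that replicate, also not called.

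Hormone-binding serpins were not called. Serpina6, corticosteroid-binding globulin, had 107 to 539 CPM on the FFD and 150 to 511 CPM on the control diet, with a log2 fold change of -0.10 (SE 0.30). Serpina7, thyroxine-binding globulin, had 37.0 to 163 CPM and 30 to 148 CPM, and its log2 fold change was 0.62 (SE 0.30). Serpina12, vaspin, an adipokine in other tissues, had an adjusted p of 0.0939 by edgeR's quasi-likelihood test, and its log2 fold change was -0.37 without control replicate 10, whose 629 CPM was the highest level. Agt, angiotensinogen, has the serpin fold under another symbol and is not counted among the 38. It had 358 to 874 CPM on the FFD and 495 to 1101 CPM on the control diet, and with a log2 fold change of -0.51 (SE 0.16) and an adjusted p of 0.0149 by edgeR's quasi-likelihood test it was not called.

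A pair of less abundant clade A genes fell as well. Serpina11 had 42.5 to 104 CPM on the FFD (median 53.1) and 66.4 to 124 CPM on the control diet (median 87.3), with 10 of 12 FFD libraries below all controls and a log2 fold change of -0.59 (SE 0.13). A predicted gene, Gm28577, shares 44.4% of its windows of 51 bases. Serpina9, a serpin best known from germinal centre B cells, was near the detection limit, with at most 11 counts in an FFD library and 22 in a control library. It had no count in 6 FFD libraries and 2 control libraries, and its log2 fold change of -2.45 (SE 0.69) lost its call when any of 8 libraries was left out (FFD replicates 2, 6, 7, 8 and 12, and control replicates 9, 10 and 12, adjusted p up to 0.0142 by edgeR's quasi-likelihood test).

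Among the genes that rose, Serpinh1 had the lowest adjusted p. It encodes HSP47, the chaperone that binds folded procollagen in the endoplasmic reticulum, and its last coding bases carry the signal that keeps the protein there. The final 30 coding bases before the stop codon, in exon 5 of 5 on the minus strand, are shown with the codons of that signal in capitals.
Serpinh1, chr7:99346123-99346152: cccaagggagacaagatgCGAGATGAGTTG

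Serpinh1 levels were 30.1, 53.9 and 114 CPM (lowest, median and highest) on the FFD and 10.2, 14.9 and 31.6 CPM on the control diet. In 11 of 12 FFD libraries it was above every control library, and the exception was FFD replicate 3. The log2 fold change was 1.74 (SE 0.20, adjusted p 9.3e-07 by edgeR's quasi-likelihood test), a fold of 3.34 between the mean levels, and it was 1.62 to 1.85 when any 1 library was left out. It was also the 1 serpin called higher in the libraries with Xist above 1000 counts alone.

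Serpine2, protease nexin 1, which inhibits thrombin and plasminogen activators, was not called, with 2.24 to 26.0 CPM on the FFD and 1.89 to 29.0 CPM on the control diet. With Xist above 1000 counts these ranges were 2.24 to 5.33 and 1.89 to 5.90 CPM. With Xist below they were 7.37 to 26.0 and 15.9 to 29.0 CPM. The log2 fold changes in the 2 sets were 0.43 (SE 0.28) and -0.75 (SE 0.27). Their difference had an adjusted p of 0.0632 by edgeR's interaction test and 0.0401 by that of DESeq2.

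Serpini1, neuroserpin, an inhibitor of tissue-type plasminogen activator known from neurons, was present at low levels. It had 0.0996 to 1.73 CPM on the FFD (median 0.756) and 0.0492 to 0.492 CPM on the control diet (median 0.233), which correspond to at most 39 and 9 counts in a library. In 10 of 12 FFD libraries it was above all controls, and its log2 fold change was 1.76 (SE 0.34).

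Of the intracellular clade B, Serpinb6b, Serpinb9 and Serpinb6a rose. Serpinb6a and Serpinb6b are mouse relatives of human SERPINB6, an inhibitor of cathepsin G in leukocytes. Serpinb6b ranged from 1.54 to 22.9 CPM on the FFD (median 7.88) and from 0.688 to 4.01 CPM on the control diet (median 1.72), a log2 fold change of 2.06 (SE 0.43) that was not called with limma-voom. Serpinb6a had 21.0 to 46.6 CPM (median 28.9) and 9.57 to 36.1 CPM (median 15.8), a log2 fold change of 0.74 (SE 0.20) just inside the threshold (adjusted p 0.00449 by edgeR's quasi-likelihood test). Serpinb9, the inhibitor of granzyme B that protects cells from cytotoxic granules, ranged from 6.32 to 13.5 CPM (median 8.04) and from 2.55 to 7.33 CPM (median 4.13). Of 12 FFD libraries 10 lay above all controls, with a log2 fold change of 0.96 (SE 0.16).

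The other clade B genes were not called. Serpinb1a, an inhibitor of neutrophil elastase, had 1.95 to 20.1 CPM on the FFD and 0.855 to 15.9 CPM on the control diet, with a log2 fold change of 0.99 (SE 0.45). It was called higher with the replicate number as a block and with the Xist set as a covariate. Serpinb8, an inhibitor of furin, had a log2 fold change of 0.45 (SE 0.24). Serpinb10, a serpin of blood cell precursors, had at most 18 counts in a library, and its log2 fold change of 2.05 (SE 0.79, adjusted p 0.0422 by edgeR's quasi-likelihood test) was 1.01 without FFD replicate 3. Serpinb7 had at most 6 counts in a library.

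Serpina3g and Serpina3h were the genes of clade A that rose. Serpina3g, an intracellular inhibitor of cysteine cathepsins, had 13.7 to 44.9 CPM on the FFD (median 18.9) and 6.12 to 20.3 CPM on the control diet (median 9.94). Every FFD library was above the control median, and the log2 fold change was 0.97 (SE 0.21, adjusted p 0.000836 by edgeR's quasi-likelihood test). Serpina3h had 0.422 to 2.45 CPM (median 0.841) and 0.236 to 0.789 CPM (median 0.428), at most 46 and 15 counts, with a log2 fold change of 1.12 (SE 0.27) that was not called with the replicate block. Both had their highest level in FFD replicate 3, without which the values were 0.81 and 0.94. Serpina3i, just outside the threshold with a log2 fold change of 1.48 (SE 0.50, adjusted p 0.021 by edgeR's quasi-likelihood test), was called higher without FFD replicate 1, without control replicate 11, with DESeq2 and with library totals alone.

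**Figure D4:**
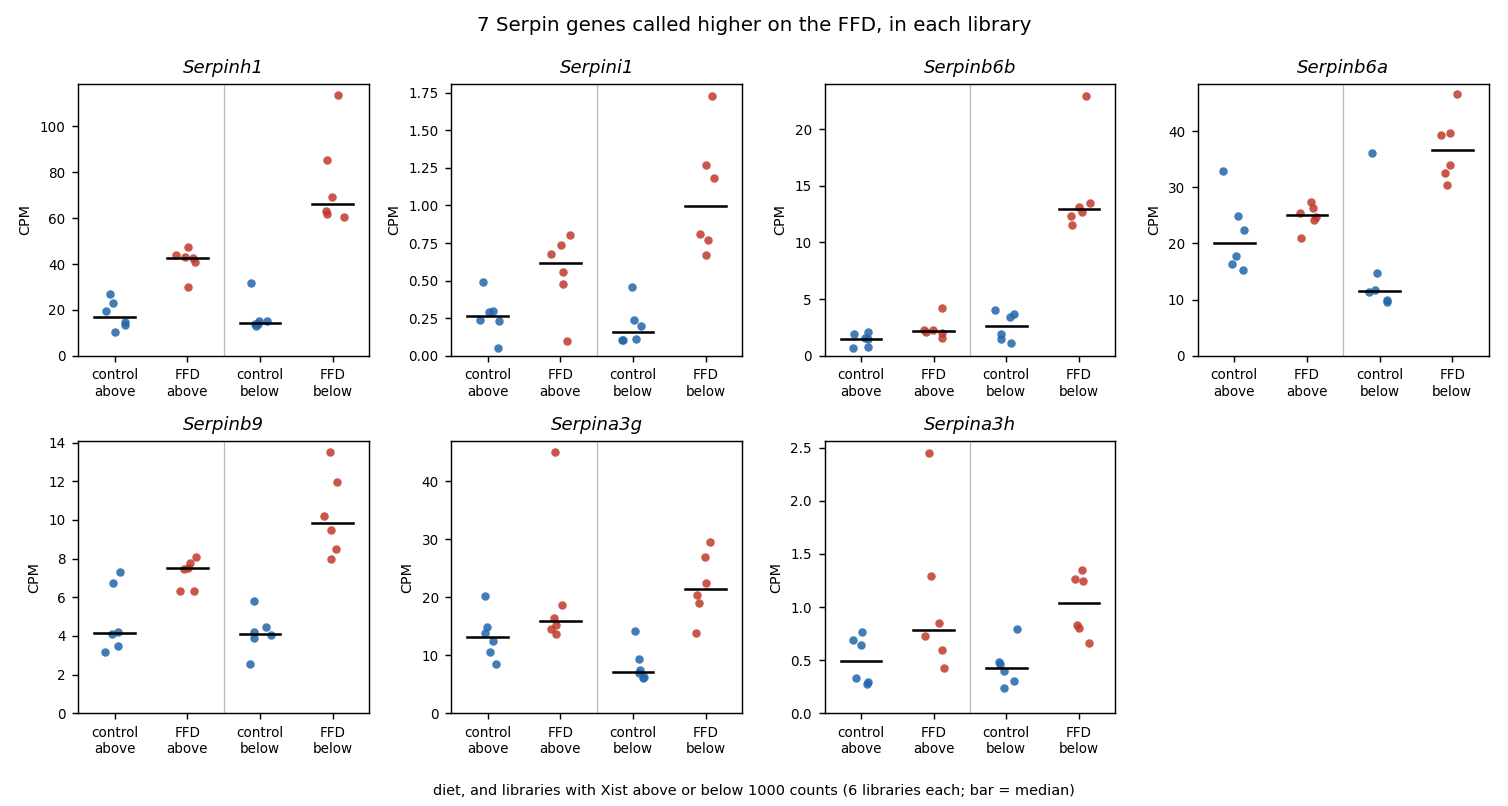
CPM on a linear axis from 0 is plotted in each library for 7 serpin genes called higher on the FFD, split by diet and by Xist set (6 libraries each, bar at the median). In Serpinb6b the 6 FFD libraries with Xist below 1000 counts sit between 11.5 and 22.9 CPM, above the 18 other libraries.

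The proteases and partners on which serpins act were read from lists of known targets. Around Serpinf2 and Serpine2, 4 of 8 genes of plasminogen activation rose and 1 fell. Plat and Plau, the tissue-type and urokinase-type plasminogen activators, had log2 fold changes of 3.17 (SE 0.46) and 1.82 (SE 0.25), and Plaur, the urokinase receptor, had 2.07 (SE 0.30). Plgrkt, a plasminogen receptor, rose by 0.53, and Plg, plasminogen itself, fell by 0.68 on the log2 scale. The median of the list was 0.55.

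Around Serpinc1, Serpind1, Serpina10 and Serpina5, 5 of 10 coagulation genes fell and 0 rose, with a median log2 fold change of -0.53. Pros1, protein S, with 0.47 (SE 0.09), was higher by less than the fold threshold. The genes that fell were F7 (-0.74), F10 (-0.60), F11 (-0.94), Klkb1, plasma prekallikrein (-0.73), and Proz, protein Z (-0.57). Of the 6 proteases on the complement list around Serping1, Masp2 fell (-0.55) and the others were not called. Granule proteases were scarce: 6 of 9 were tested, and Elane, neutrophil elastase, and Gzmk, granzyme K, rose from means of 0.0939 and 0.0261 CPM on the control diet. The mean of Elane on the FFD, 1.69 CPM with an SD of 5.04 CPM, was carried by FFD replicate 3. Of 7 cysteine cathepsins 3 rose, Ctsb (0.54), Ctsk (1.99) and Ctss (1.69).

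Around Serpinh1, 11 of 17 procollagen and collagen-folding genes rose and 0 fell, with a median log2 fold change of 1.42. Mia3, which helps export procollagen, had -0.33 (SE 0.09), within the fold threshold. Col1a1 rose from a mean of 13.6 to 119 CPM (3.12), Col3a1 from 28.1 to 171 CPM (2.60) and Col5a2 from 3.29 to 14.5 CPM (2.13). Of the genes that modify or fold procollagen, Fkbp10 (1.80), Plod2 (1.72), P4ha1 (0.81) and Crtap (1.04) rose. Acute-phase genes did not move one way: of 14, Lcn2 (3.11) and Orm2 (2.89) rose, and the fibrinogen genes Fga (-0.56), Fgb (-0.65) and Fgg (-0.64) fell. Of 6 renin-angiotensin genes Ace rose (1.94) and Enpep fell (-0.79).

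Markers of liver cell types moved with the serpins of both directions. Of 7 hepatocyte markers 5 fell (Alb, Apoa1, Ttr, Tat and Ass1), with a median log2 fold change of -0.72, and their summed level was 37910 to 91930 CPM on the FFD and 82620 to 133700 CPM on the control diet. Falls of hepatocyte serpins thus came with falls of other hepatocyte transcripts. In whole liver fewer cells of a type and less RNA per cell cannot be told apart. Markers of stellate cells and myofibroblasts rose in 6 of 8, with sums of 328 to 829 CPM against 125 to 378 CPM. Macrophage markers rose in 6 of 7 (454 to 986 CPM against 109 to 475 CPM), cholangiocyte markers in 4 of 5 (31.6 to 880 CPM against 27.3 to 131 CPM) and neutrophil markers in 5 of 6. The neutrophil sums were 1.48 to 230.6 CPM on the FFD (median 2.77) and 0.403 to 2.58 CPM on the control diet, with the highest in FFD replicate 3. T and NK cell markers had sums of 2.79 to 8.14 CPM and 0.825 to 9.18 CPM. The part of these cell types in the serpin results was not tested.

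The diet effect on 9 of the 38 serpins differed between the 2 Xist sets, by the interaction of diet and set in edgeR's quasi-likelihood test at an adjusted p of at most 0.05. This is 23.68% of the serpins, beside 10.2% of all genes. The near-identical copies Serpina1a, Serpina1c, Serpina1d and Serpina1e are among the 9 and are counted singly. Differences below are the log2 fold change with Xist below 1000 counts minus that with Xist above 1000 counts. With Xist above 1000 counts 1 serpin was called higher and 4 lower, and with Xist below 1000 counts 9 were called higher and 12 lower, in fits of 12 libraries each. Of all genes, 2.9% and 0.882% were called higher and lower in the first set and 14.4% and 7.99% in the second.

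In 5 genes the diet effect was more negative with Xist below 1000 counts. Of these, Serpina1e had a log2 fold change of 0.036 (SE 0.70) with Xist above 1000 counts. There FFD replicate 3, at 306 CPM, lay above every control library (29.6 to 176 CPM). The other FFD libraries of that set, at 15.4 to 28.3 CPM, lay below all of these controls. Serpina1c fell by 0.69 with Xist above 1000 counts and by 1.83 with Xist below, a difference of -1.15 (SE 0.21, adjusted p 0.001 by edgeR's interaction test). Its control libraries were at 3663 to 6468 CPM in the first set and 6985 to 14430 CPM in the second, while its FFD libraries were at 2887 to 3973 and 2459 to 3270 CPM. For Serpina1d the difference was -1.06 (SE 0.21), for Serpina1a -0.66 (SE 0.17) and for Serpinf2 -0.72 (SE 0.20). The summed Serpina1 genes differed by -0.99 (SE 0.21, adjusted p 0.00327 by edgeR's interaction test). Serpina1e had a difference of -3.98 (SE 1.06, adjusted p 0.017), which was -2.30 with an adjusted p of 0.0653 by edgeR's interaction test without FFD replicate 3, the library at 306 CPM among 6 whose median was 22.7 CPM.

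In 4 genes the diet effect was more positive with Xist below 1000 counts. Serpina7 had a log2 fold change of -0.45 (SE 0.33) with Xist above 1000 counts and of 1.51 (SE 0.28) with Xist below, where the FFD libraries had 97.0 to 163 CPM and the control libraries 30 to 101 CPM. The difference was 1.96 (SE 0.47, adjusted p 0.00826 by edgeR's interaction test). Serpinb6b differed by 1.68 (SE 0.43), with FFD levels of 1.54 to 4.21 CPM in the set with Xist above and 11.5 to 22.9 CPM in the other, which did not overlap. Serpinb6a differed by 1.07 (SE 0.34) and Serpina3f by 1.33 (SE 0.41). Serpinh1, at 1.21 (SE 0.19) and 2.16 (SE 0.23), had a difference of 0.94 that missed the threshold (adjusted p 0.0583 by edgeR's interaction test).

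**Figure D5:**
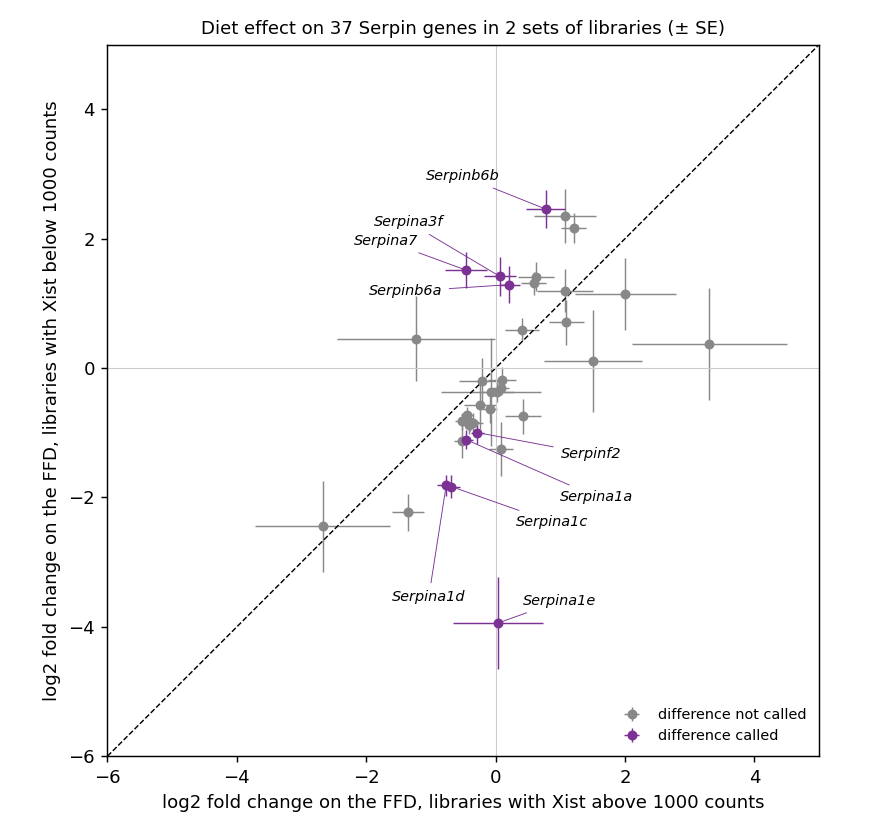
The log2 fold change on the FFD of 37 serpin genes is plotted for libraries with Xist above 1000 counts (horizontal) against those with Xist below 1000 counts (vertical), with bars of 1 SE, 6 libraries per diet and set, and the dashed line of equal effects. The 9 labelled genes are those whose difference was called, from -3.98 for Serpina1e to 1.96 for Serpina7.

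Some serpins were scarce or not detected. Below the count filter were 25 of the 63 genes, of which 10 had no count in any library. Most belonged to clade B, with 20 of its 27 genes. Serpinb9f, a relative of Serpinb9, reached 16 counts in an FFD library and had 0 in all control libraries. Serpinb2, PAI-2, reached 5 counts in an FFD library and 1 in a control library. These genes were left out of the calls above. At this depth 3 counts correspond to about 0.146 CPM in an FFD library and 0.168 CPM in a control library of mean size.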

How the data were processed

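RNA was extracted from whole liver with Trizol, and 24 poly(A) libraries were sequenced. Raw read counts, whole numbers without normalization, were deposited by the authors in 1 table of 56205 Ensembl gene IDs. Per the labels, reads were aligned to mm10 with STAR 2.7.3a after bcl2fastq. The counting program, its annotation and its strand setting are not given in the sources used here. Reads of near-identical paralogs and overlapping genes may be split or discarded by such counting. GENCODE M21 gave symbols to 51745 of the IDs, and the remaining 4460 held 0.0723% of the counts. The coordinates and sequences are of GRCm38, the assembly of mm10.

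From the deposited counts, the 17913 genes counted in 12 or more libraries were fitted with edgeR 4.0.16 in R 4.3.3 (TMM, quasi-likelihood, diet alone in the model, Benjamini-Hochberg adjusted p). The thresholds follow the study's methods for its human liver samples, which used DESeq2 with sex as a covariate. No label gives the sex of a library, so the model here had no such term, and the Xist set as a covariate was an alternative. The SE was derived from the F statistic and the size of the fold change. The interaction of diet and Xist set was fitted likewise. P-values measure the spread between libraries. No 2 libraries of a diet were alike within sampling noise (lowest chi-square per degree of freedom 9.48). The fits were tested on simulated counts. The diet test called 56% of genes set to an absolute log2 fold change of 1, and 78% of those at 2. The interaction test called 65% of genes set to an absolute log2 difference of 2, and 73% of those at 3. Unchanged genes were called in 0.0114% for the diet and 0.0286% for the interaction. A gene that was not called may therefore still have changed. The simulated counts took their spread from the fit with diet alone and held no difference between Xist sets on the control diet. The shares for the interaction may thus not hold in these data. Coding sequences were aligned with mafft 7.526.

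Alternatives were DESeq2 1.42.0, limma-voom (limma 3.58.1), 2 other scalings, 3 other filters, 2 other thresholds, a replicate block, the Xist set as a covariate, each set alone and each library left out. Genes named are those called, the 10 with the highest mean CPM, those with a called interaction and those near the threshold, and other members were named after their values were seen. The members and lists were chosen with earlier results of these data known. FFD replicate 3 and control replicate 10 were left out of the interaction after seeing the data. Depth was 14468418 to 22112552 counts per library. The authors' other models and human samples were not analysed here. Counts, shares and medians are over all 38 members, but the values of 1 of them are not reported here and it is not drawn.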

Additional observations from a re-analysis of the deposited data

Results flagged for a closer look

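For 9 serpin genes the diet effect differed between the 2 Xist sets by edgeR's interaction test (log2 fold change with Xist below 1000 counts minus that with Xist above 1000 counts). The difference was -3.98 for Serpina1e, -1.15 for Serpina1c, -1.06 for Serpina1d, -0.72 for Serpinf2 and -0.66 for Serpina1a, and it was 1.96 for Serpina7, 1.68 for Serpinb6b, 1.33 for Serpina3f and 1.07 for Serpinb6a. Replicates 1 to 6 form one set and replicates 7 to 12 the other, so the numbering and anything that went with it cannot be told apart from the Xist level.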

How the results depend on the processing

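Serpins called higher numbered 8 and lower 12. Leaving out each library gave 8 to 9 and 11 to 12 (all genes 2188 to 2468 and 700 to 995), and 19 of the 20 calls were kept in all 24 of these fits, with Serpina9 as the exception. Scaling by library totals gave 3 lower, with 3827 and 226 of all genes. At least 10 counts in every library left 26 serpins tested, 5 called higher, and 1226 of all genes. A log2 fold change over 1 gave 5 higher and 5 lower, with 216 of all genes lower. An adjusted p of at most 0.05 with no fold threshold gave 3709 and 3388 of all genes. With Xist above 1000 counts the numbers were 1 and 4 (all genes 520 and 158), and with Xist below 1000 counts 1431 of all genes were lower. The summed genes kept their calls, at -1.17 to -1.03 for Serpina1 and -1.73 to -1.45 for Serpina3 with 1 library left out. With Xist above 1000 counts the log2 fold changes of Serpina1e (0.036), Serpina7 (-0.45) and Serping1 (0.083) changed sign, as did Serpine2 (0.43), Serpina12 (0.083), Serpina5 (-1.23), Serpina3n (0.10) and Serpina6 (0.02), none of them called. With library totals Serping1 (0.17), Serpina3n (0.22), Serpina6 (0.11) and Serpina3a (0.05) did. In these results the cause was not tested, beyond the fewer libraries or genes that some settings hold. Interaction calls numbered 9, 3 at an adjusted p of at most 0.01, 13 with DESeq2, 11 without FFD replicate 3 and 9 without control replicate 10.

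A replicate block gave 8 higher and 12 lower, exchanging Serpina3h for Serpinb1a and Serpina1e for Serpina3m. Libraries of 1 number correlated across diets by -0.0935 to 0.541, negatively for replicate 9, and 2 FFD and 4 control libraries correlated best with their own number, so the numbers were not taken as pairs. Depth limits the genes with a few counts per library, such as Serpina9 and Serpinb10.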

Other observations

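Serpina1e separated the control libraries with Xist below 1000 counts further. Replicates 7, 10 and 12 had 8541, 8419 and 7855 CPM, and replicates 8, 9 and 11 had 2380, 1753 and 1974 CPM. On the FFD the same replicate numbers had 540, 233 and 57.9 CPM and 99.7, 915 and 145 CPM.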
